A study of Mus musculus with 6 samples.

Results

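The nuclear genes for the oxidative phosphorylation complexes were examined in mouse blastocysts cultured with a mimic of miR-30d or with a scrambled control. Members were the genes whose symbol in the array's annotation starts with Nduf, Uqcr, Cox4 to Cox8 or Atp5, or is Sdha, Sdhb, Sdhc or Sdhd, without pseudogene and related-sequence symbols. This gave 93 of the 22485 genes named on the array: 6 core subunits, 31 accessory subunits and 8 assembly factors of complex I, 4 genes of complex II, 8 of complex III, 20 of complex IV and 16 of complex V. Ndufa4 and Ndufa4l2 were placed with complex IV, of which Ndufa4 is now regarded as a subunit. Ndufa11b and Ndufs6b are annotated as pseudogenes but meet the rule, and their features may share signal with Ndufa11 and Ndufs6. The rule does not reach Cyc1, which encodes a catalytic subunit of complex III, and Atp5g1 was not analysed here.

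All embryos came from B6C3F1 females aged 6 to 8 weeks that were given 10 IU of pregnant mare serum gonadotropin and, 48 hours later, 10 IU of hCG before mating. Embryos were flushed from the oviduct on day 2 and cultured for 72 hours in CCM-30 medium, in 3 samples with 400 nM of a miR-30d mimic and in 3 with 400 nM of a scrambled oligonucleotide labelled with Alexa 488. Whole day 5 blastocysts, 30 embryos per condition, gave 50 ng of total RNA per array for Cy3 labelling. Both groups received an oligonucleotide at the same dose, but the dye is described for the scramble alone, so effects of the dye and of the mimic cannot be told apart. Untreated embryos were not analysed here. Each array gave 1 log2 signal per feature, and the number of arrays, 3 per group, limits the precision. Titles call the samples biological replicates, but nothing says that they came from separate matings or days, so the p-values cover no more than the spread among these 6 arrays.

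Oxidative phosphorylation couples electron transport to ATP synthesis at the inner mitochondrial membrane. Complexes I and II pass electrons from NADH and succinate to ubiquinone, complex III passes them on to cytochrome c, complex IV reduces oxygen, and complex V uses the proton gradient so formed to make ATP. Most subunits are encoded in the nucleus and the rest in mitochondrial DNA. The embryo inherits its mitochondria from the oocyte, and oxygen use rises as the blastocyst forms and its trophectoderm pumps sodium to fill the blastocoel.

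Many genes of this kind share promoter elements bound by NRF1, by ETS factors such as GABP and by YY1. RefSeq promoter windows of assembly GRCm38.p6, from 250 bases before to 50 after each gene's start, matched 75 of the 93 members. On either strand, the NRF1-type motif (GCGCA, any base, GCGC) stood in 19 of 75 members (25.3%) and in 5.19% of the 27025 genes with a window. The ETS-type motif CCGGAAG stood in 19 of 75 (25.3%) against 9.93%, and the YY1-type motif AAGATGGCG in 8 of 75 (10.7%) against 1.64%. At least 1 of the 3 was found in 39 members (52.0%) and in 15.1% of all genes. Matches were allowed to overlap, and the windows of members were also richer in G and C, with a median of 58.5% against 52.8%. By complex, 11 of 14 complex V genes with a window and 3 of 14 complex IV genes held at least 1 motif. The windows of 3 members are shown, 5′ to 3′ with motif matches in capitals. Ndufs7 and Atp5k had the smallest p-values in the core of complex I and in complex V, and Cox6a1 is the broadly expressed counterpart of the member with the greatest difference. They lie at chr10:80249199-80249498 (plus strand), chr5:108434350-108434649 (minus strand) and chr5:115348909-115349208 (minus strand).
Ndufs7: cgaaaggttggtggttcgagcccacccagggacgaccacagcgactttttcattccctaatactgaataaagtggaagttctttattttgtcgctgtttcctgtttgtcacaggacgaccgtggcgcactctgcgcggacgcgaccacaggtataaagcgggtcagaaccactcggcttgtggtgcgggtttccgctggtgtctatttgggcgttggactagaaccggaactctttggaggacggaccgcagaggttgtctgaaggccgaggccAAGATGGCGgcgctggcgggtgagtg
Atp5k: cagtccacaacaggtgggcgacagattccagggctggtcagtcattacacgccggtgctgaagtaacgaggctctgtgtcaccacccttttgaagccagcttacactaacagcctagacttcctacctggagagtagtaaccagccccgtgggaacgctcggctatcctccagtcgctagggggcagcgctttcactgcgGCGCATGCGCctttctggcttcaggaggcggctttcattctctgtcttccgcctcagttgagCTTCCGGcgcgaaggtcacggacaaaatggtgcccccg
Cox6a1: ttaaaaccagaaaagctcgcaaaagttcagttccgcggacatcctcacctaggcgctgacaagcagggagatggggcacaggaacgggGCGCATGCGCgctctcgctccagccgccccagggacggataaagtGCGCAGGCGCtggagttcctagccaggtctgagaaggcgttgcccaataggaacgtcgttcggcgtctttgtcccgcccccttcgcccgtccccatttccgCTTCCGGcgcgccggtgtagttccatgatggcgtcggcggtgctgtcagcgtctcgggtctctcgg
The Ndufs7 window holds 1 YY1-type match, the Atp5k window an NRF1-type and an ETS-type match, and the Cox6a1 window 2 NRF1-type matches and 1 ETS-type match. A match is a description of these letters and not a measured binding site.

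After the dimmest 25% of features were left out, 17399 genes were tested with limma, and 91 of the 93 members were among them. Cox7b2 and Cox8b, both isoforms of complex IV, were too dim. At an adjusted p of 0.05 (Benjamini-Hochberg over all genes), 0 members and 0 of all genes (0.0%) passed, and the smallest adjusted p was 0.972. At an unadjusted p under 0.05 there were 2 members, Ndufs7 and Cox6a2, both with lower signal in mimic-treated embryos. That is 2.2% of the members tested, near the 3.17% of all genes (1.66% higher and 1.51% lower). In 10 members the groups did not overlap, 2 higher and 8 lower, and in 9.7% of all genes (5.58% higher and 4.12% lower). Of the 91 members, 34 stood higher and 57 stood lower. Their median log2 difference (mimic minus scramble) was -0.064, beside 53.2% higher and a median of 0.02 over all genes. The sign of the members' median rested on scramble replicate 2: without that array 51 were higher and 40 lower, and the median was 0.015. The median over all genes also rose, to 0.049, so that of the members stayed below it.

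The differences were small and bounded. In 71 of 91 members (78.0%) the log2 difference was under 0.2 in size. This share was 55.2% over all genes tested and 71.5% over the 2067 other genes that were bright, as defined below. The 95% interval of the difference lay within 2-fold in both directions for 88 members, the exceptions being Cox6a2, Cox7a1 and Ndufaf5. For 68 members (74.7%, beside 26.8% of all genes) it lay within 1.5-fold, and among bright genes for 82.4% of members and 60.1% of the others. The median standard error was 0.156 for members and 0.249 for all genes. Bright here means a mean level of at least 10.99, the lower quartile of the members. Levels were not matched further above that limit. The 2067 other bright genes had a median standard error of 0.17 beside 0.148 for the 68 members in that range. Of the bright members 35.3% stood higher, beside 57.1% of the other bright genes. Their medians were -0.065 and 0.033, or 0.021 and 0.077 without scramble replicate 2. The unadjusted limma p was under 0.05 in 1.47% of the bright members and 6.19% of the other bright genes. With same-numbered arrays as a block, the unadjusted p was under 0.05 in 9 members (9.89%), of which 1 was higher and 8 were lower, where 7.24% of all genes did (3.95% higher and 3.29% lower). Among bright genes the share was smaller in members, at 8.82% of the 68 beside 20.0% of the 2067 others. The 9 members, bright or not, were Ndufs7, Ndufv3, Ndufc2, Ndufaf1, Cox6a2, Cox7a1, Cox5b, Atp5j2 and Atp5k, of which Ndufc2 was higher. The smallest adjusted p among members in that limma fit was 0.516, while 1 gene of 17399 (0.00575%), not a member, passed.

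**Figure D1:**
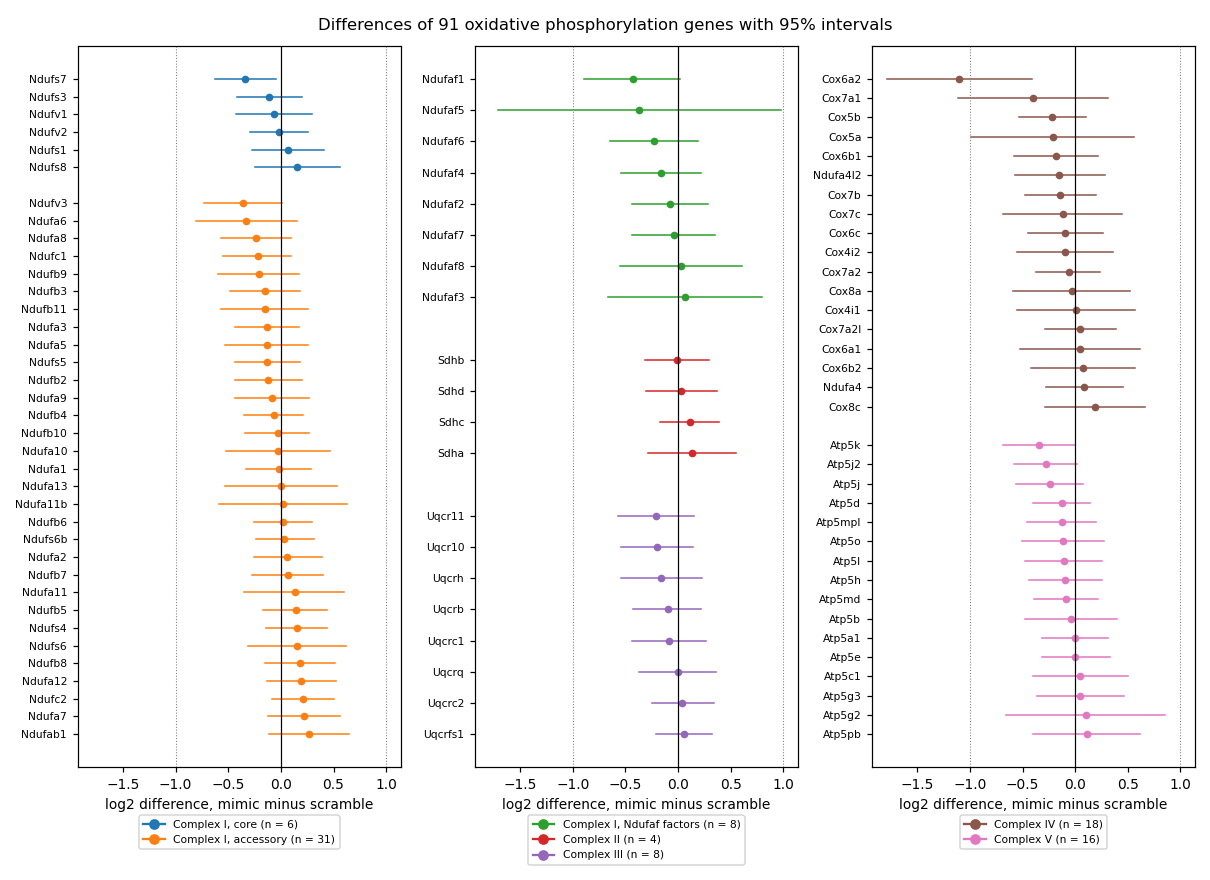
Log2 difference (mimic minus scramble, x axis) of each of the 91 members tested, with its 95% interval from limma, grouped by complex; dotted lines mark 2-fold. All intervals but those of Ndufs7 and Cox6a2 include 0, and Cox6a2 at -1.10 is the only member past 2-fold. Of all 17399 genes tested, 73 were more than 2-fold higher and 91 more than 2-fold lower.

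The core of complex I in the matrix arm holds the flavin and the iron-sulfur clusters that carry electrons from NADH to ubiquinone. Ndufs7, which binds the last cluster before ubiquinone, read 12.71, 12.83 and 12.56 with scramble and 12.40, 12.39 and 12.29 with the mimic. Every mimic array lay below every scramble array. Its log2 difference was -0.34 (SE 0.13), a 1.27-fold lower signal, with an unadjusted p of 0.027 and an adjusted p of 0.972 in limma, and leaving out single arrays gave -0.41 to -0.27. Its unadjusted p was 0.0537 without scramble replicate 1, 0.0839 without scramble replicate 2, 0.0537 without mimic replicate 2, 0.0964 without mimic replicate 3 and 0.0776 without a mean-variance trend. The other core genes overlapped between groups. The NADH- and flavin-binding subunit Ndufv1 had a log2 difference of -0.07 (SE 0.16), its neighbour Ndufv2 -0.02 (SE 0.12), the large iron-sulfur subunit Ndufs1 0.07 (SE 0.15), Ndufs3 -0.11 (SE 0.14) and the iron-sulfur subunit Ndufs8 0.15 (SE 0.18). The median of the 6 core genes was -0.041.

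The accessory subunits of complex I surround this core and the proton-pumping membrane arm. Of the 31, 14 stood higher and 17 stood lower, and log2 differences ran from -0.36 to 0.27 around a median of -0.022. Ndufv3, a small subunit of the NADH-binding module, read 13.29, 13.31 and 12.89 with scramble and 12.98, 12.76 and 12.68 with the mimic. Mimic replicate 1 lay above scramble replicate 3, so the groups overlapped, and the log2 difference was -0.36 (SE 0.16) on the brighter of its 2 features and -0.15 on the dimmer. Ndufc2, a membrane arm subunit, had 0.21 (SE 0.13), and Ndufa8, which faces the intermembrane space, had -0.24 (SE 0.15) without overlap. Ndufa3 had -0.13 (SE 0.13), also without overlap. The mitochondrial acyl carrier protein gene Ndufab1 (0.27, SE 0.17) and Ndufb8 (0.18, SE 0.15), a membrane arm subunit, were the members whose mimic values all lay above the scramble values; they and Ndufa3 were picked out after their values were seen.

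The Ndufaf genes encode factors that build complex I and are not part of the finished enzyme. Of the 8, 2 stood higher and 6 stood lower, and the median log2 difference was -0.12. Ndufaf1, which helps to assemble the membrane arm, read 9.31, 9.58 and 9.52 with scramble and 8.78, 9.19 and 9.13 with the mimic, without overlap, a log2 difference of -0.43 (SE 0.20). Ndufaf6 had -0.23 (SE 0.18), also without overlap, and Ndufaf4 had -0.16 (SE 0.17), with 0.06 on its second feature. Ndufaf5, which modifies the Ndufs7 protein, spread most of all members, over 2.20 log2 units on the 6 arrays. It read 10.03 and 9.52 on the replicate 1 arrays of scramble and mimic and between 7.83 and 8.49 on the other 4, and it was singled out after its values were seen.

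Complex II, succinate dehydrogenase, is shared with the citric acid cycle and is wholly nuclear-encoded. Its median log2 difference was 0.072, and no member had groups that did not overlap. Sdha, the flavoprotein that oxidises succinate, read 11.32, 11.77 and 11.63 with scramble and 11.37, 11.90 and 11.83 with the mimic. Its log2 difference was 0.13 (SE 0.18). In both groups replicate 1 was the low array. The iron-sulfur subunit Sdhb had -0.01 (SE 0.13), with a 95% interval from -0.31 to 0.29, and the membrane anchors Sdhc and Sdhd had 0.11 (SE 0.12) and 0.03 (SE 0.15). The median of the 4 was -0.037 without scramble replicate 1.

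Complex III passes electrons from ubiquinol to cytochrome c. Of its 8 members, 2 stood higher and 6 stood lower, the median log2 difference was -0.094, and the groups overlapped for all 8. The small subunits Uqcr10, Uqcr11 and Uqcrh, the hinge protein, had -0.20 (SE 0.15), -0.21 (SE 0.16) and -0.16 (SE 0.17). The Rieske iron-sulfur protein gene Uqcrfs1 had 0.06 (SE 0.12), and the core proteins Uqcrc1 and Uqcrc2 had -0.09 (SE 0.16) and 0.04 (SE 0.13); these 3 were named for their role after their values were seen. Uqcrc2 is read by 10 features, whose log2 differences went from -0.03 to 0.14, 9 of them above 0. Over the 26 members with several features, the features had the same sign in 17 and both signs in 9.

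Complex IV, cytochrome c oxidase, has several subunits with tissue-specific isoforms, and the member with the greatest difference was one of these. Cox6a2, the isoform of heart and skeletal muscle, read 8.99, 8.60 and 8.85 with scramble and 7.32, 8.04 and 7.76 with the mimic. All 3 mimic arrays lay below all scramble arrays. The means were 8.81 ± 0.20 and 7.71 ± 0.36 (SD, n = 3 each), a 2.15-fold lower signal with a log2 difference of -1.10 (SE 0.30) and a 95% interval from -1.79 to -0.41. Its unadjusted p in limma was 0.00581 and its adjusted p 0.972, so it did not pass. Leaving out each array in turn gave -1.27 to -0.91, and without both replicate 1 arrays the log2 difference was -0.82. Cox6a2 has a single feature on the array, and mimic replicate 1, at 7.32, stood near 7.20, the median level of features without a gene name, while the other mimic arrays stood above it.

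Cox6a1, the isoform of most other tissues, read 15.54, 15.76 and 16.00 with scramble and 15.75, 15.75 and 15.95 with the mimic. Its log2 difference was 0.05 (SE 0.25). The value of 16.00 is the maximum of the whole table. Cox7a1, the muscle isoform of another subunit, read 10.01, 9.25 and 9.20 with scramble and 9.62, 8.67 and 8.98 with the mimic. The groups overlapped, replicate 1 was the high array in both, and the log2 difference was -0.40 (SE 0.31). It went from -0.66 without mimic replicate 1 to -0.13 without scramble replicate 1. Its broadly expressed counterpart Cox7a2 had -0.06 (SE 0.13), and Cox7a2l, which takes part in joining complexes III and IV, had 0.05 (SE 0.15).

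Among the remaining isoform groups of complex IV, Cox4i1 had a log2 difference of 0.01 (SE 0.25), which quantile normalization turned to -0.045, and Cox8a -0.03 (SE 0.24). Cox6b1 had -0.18 (SE 0.18) and Cox6b2, its testis isoform, 0.07 (SE 0.22). Cox7b had -0.14 (SE 0.15), Ndufa4 0.08 (SE 0.16) and Cox5b, a subunit next to the catalytic core, -0.22 (SE 0.14). Cox4i2, an isoform of lung, had means of 7.33 with scramble and 7.23 with the mimic, and the testis isoform Cox8c had 7.13 and 7.32. The hypoxia-inducible Ndufa4l2 had 7.25 and 7.10. These 3 lay close to the level of unnamed features, as did the untested Cox8b (7.08 and 7.05) and Cox7b2 (7.08 and 7.19), and their differences say little. Of the 18 genes of complex IV tested, 6 stood higher and 12 stood lower, and their median was -0.097, or 0.016 without scramble replicate 2.

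Complex V, the ATP synthase, had 5 members that stood higher and 11 that stood lower, around a median log2 difference of -0.091. Without scramble replicate 2 the median was -0.020 with 8 higher and 8 lower, and without scramble replicate 1 it was -0.116 with 0 higher and 16 lower. The small subunits Atp5k, Atp5j2 and Atp5j of its membrane part and stalk had the smallest p-values. Atp5k (subunit e), which helps synthase dimers to form, read 13.35, 13.39 and 13.22 with scramble and 13.09, 12.73 and 13.11 with the mimic, without overlap. Its log2 difference was -0.34 (SE 0.15), and its other feature gave -0.32. Atp5j2 (subunit f) read 13.30, 13.30 and 13.27 with scramble and 13.14, 12.90 and 12.98 with the mimic, also without overlap, a log2 difference of -0.28 (SE 0.13), with -0.14 on the other feature. Atp5j (coupling factor 6) had -0.24 (SE 0.14) with overlapping groups. The unadjusted p-values of these 3 genes in limma were 0.0504, 0.0609 and 0.114.

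The catalytic part of the synthase differed little. Atp5b, the catalytic beta subunit, had a log2 difference of -0.04 (SE 0.19), and Atp5a1, the alpha subunit, read between 13.18 and 13.39 on all 6 arrays; both were named for their role after their values were seen. The membrane ring genes Atp5g2 and Atp5g3, which encode the same mature protein, had 0.10 (SE 0.33) and 0.05 (SE 0.18). Atp5g2 read 14.04 and 14.21 on the replicate 1 arrays of scramble and mimic and between 14.62 and 15.19 on the other 4. Without scramble replicate 1 its log2 difference was -0.19, and without scramble replicate 2 it was 0.39.

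**Figure D2:**
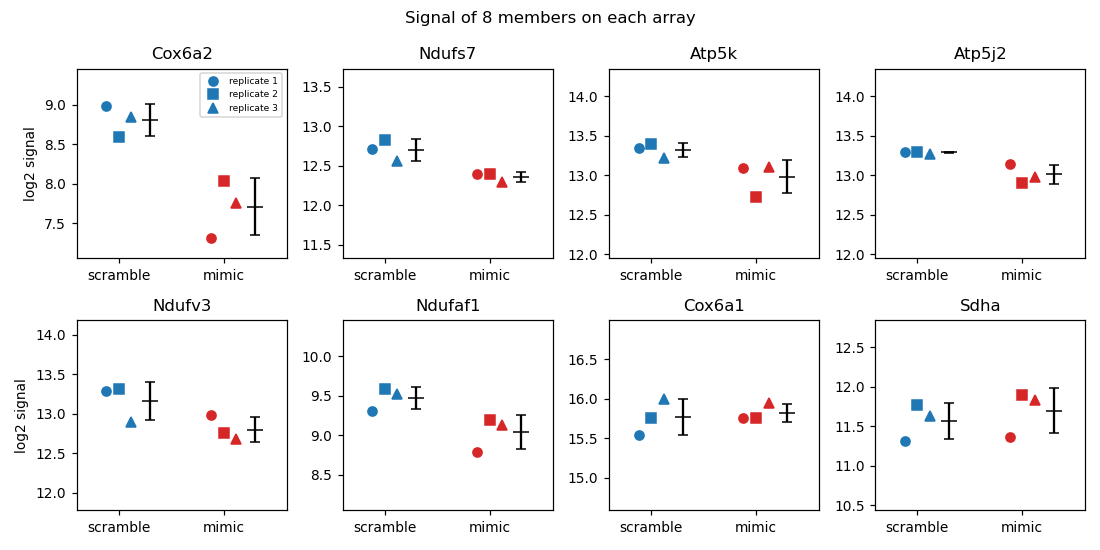
Log2 signal (y axis, 2.4 units in each panel) of 8 members on the 3 scramble and 3 mimic arrays; symbols mark replicate numbers and black bars the mean ± SD. The groups do not overlap for Cox6a2, Ndufs7, Atp5k, Atp5j2 and Ndufaf1, and they overlap for Ndufv3, Cox6a1 and Sdha.

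Single arrays stood out among the members. Scramble replicate 2 was above the 6-array mean of the gene in 72 of 91 members (79.1%), and it held the highest value in 38 (41.8%). Over all genes these shares were 57.6% and 13.3%, and over the other bright genes 67.2% and 21.7%. Mimic replicate 2 held the lowest value in 34 members (37.4%, beside 10.9% of all genes and 14.4% of the other bright genes). These arrays lie in opposite groups, in the direction of the lower median with the mimic. The highest value was on scramble replicate 2 and the lowest on mimic replicate 2 in 8 and 7 of 16 members of complex V, 4 and 4 of 8 of complex III, 7 and 7 of 18 of complex IV and 13 and 13 of 31 accessory subunits of complex I. The median deviation from the gene mean was 0.11 on scramble replicate 2 and between -0.07 and 0.01 on the other 5 arrays. RNA quality is given only as a RIN above 9.0 for every sample, and its part in these values was not tested.

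**Figure D3:**
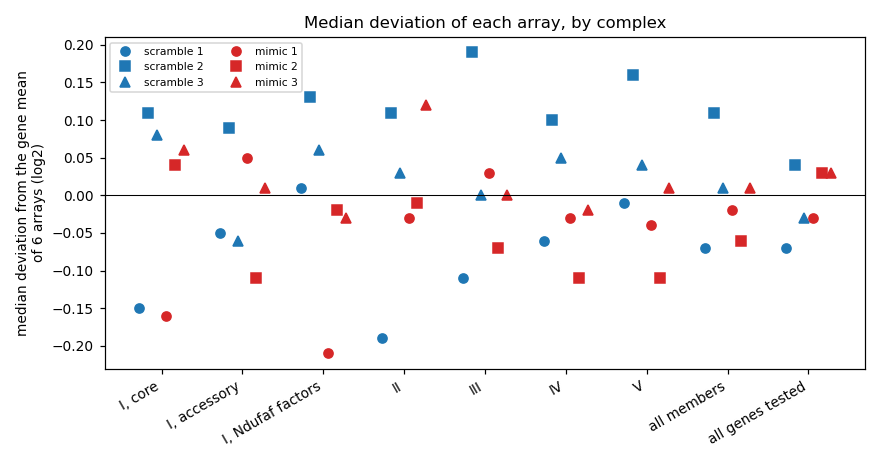
Median deviation from the 6-array mean of each gene (log2, y axis) on every array, for the members of each complex, all 91 members and all 17399 genes tested; blue marks scramble, red mimic, and symbols the replicate number. Scramble replicate 2 stands at 0.11 for all members and at 0.19 for complex III, while mimic replicate 2 stands at -0.11 for complexes IV and V and the accessory subunits of complex I.

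Same-numbered arrays were also compared between the groups. Within each group, the deviation of replicate 1 from the group mean was set against that in the other group, gene by gene. Across the 91 members these deviations correlated at r = 0.73, or 0.59 without Ndufaf5 and Cox7a1, and across all genes at 0.33. It was 0.74 over the 68 bright members and 0.77 over the 2067 other bright genes. The corresponding r across members was 0.62 for replicate 2 and 0.31 for replicate 3 (0.35 and 0.20 across all genes). Arrays of different number were not set against each other across the members. The genes are not independent and share the same 6 arrays, so this is a description. Replicate 1 was the lowest array in both groups in 26 members (28.6%, beside 29.5% of all genes) and the highest in both in 13 (14.3%, beside 18.4%). Over bright members these shares were 30.9% and 7.4%, and over the other bright genes 46.5% and 13.7%. Among those low on replicate 1 were Atp5g2 (0.81 log2 units under the mean of the other arrays), Cox5a (0.78) and Atp5pb (0.57), and among those high on it Cox7a1 (0.79), the pseudogene Ndufa11b (0.70) and Ndufaf5 (1.66). Of the 6 core genes of complex I, 4 were lowest on replicate 1 in both groups. These genes were chosen after their values were seen.

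**Figure D4:**
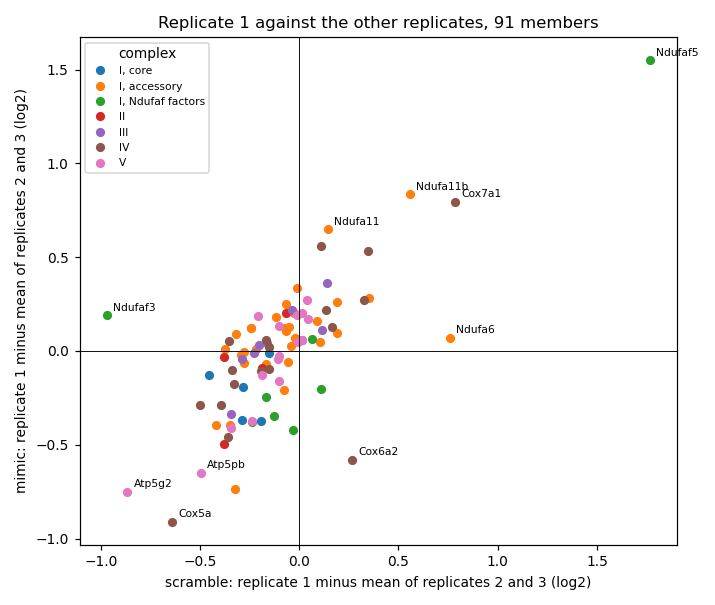
Replicate 1 minus the mean of replicates 2 and 3 (log2) in the scramble group (x axis) and in the mimic group (y axis), 1 point per member, coloured by complex. Points follow the diagonal, from Atp5g2 and Cox5a at the low end to Ndufaf5 at the high end, with Cox6a2, Ndufa6 and Ndufaf3 away from it.

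Other genes that serve the same pathway were taken from lists. Of 44 assembly factors tested, the 8 Ndufaf genes included, 22 stood higher and 22 stood lower, around a median log2 difference of 0.00. Sco2, which delivers copper to complex IV, had 0.61 (SE 0.22), Surf1, another complex IV assembly factor, -0.32 (SE 0.14), and Cox18, which inserts a subunit into the membrane, -0.27 (SE 0.15). Sco2 and Surf1 were the ones of the 44 with an unadjusted p under 0.05, which 3.17% of all genes had. Of 17 electron carrier and ubiquinone genes 12 stood higher and 5 stood lower, around a median of 0.12, and none was under that p. In that list Coq4, of ubiquinone synthesis, had 0.39 (SE 0.25), Pdss2, which makes its side chain, 0.43 (SE 0.32), and the electron transfer flavoprotein gene Etfa 0.21 (SE 0.15). Cyc1, of complex III, had 0.15 (SE 0.12), and the gene of the ATP synthase inhibitor, Atpif1, read 13.94 in the mean of both groups.

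Carriers link the synthase to the cytosol. Slc25a4, an exchanger of ADP for ATP across the inner membrane, had means of 12.58 ± 0.28 with scramble and 13.30 ± 0.22 with the mimic (SD, n = 3 each), without overlap, a log2 difference of 0.72 (SE 0.18). Its unadjusted p in limma was 0.00377, and its adjusted p of 0.972 did not pass. The related Slc25a5 had 0.17 (SE 0.16) and the outer membrane channel gene Vdac1 0.15 (SE 0.16), and 6 of the 7 carrier genes were higher. Of 17 genes of pyruvate dehydrogenase and the citric acid cycle 9 stood higher and 8 stood lower, around a median of 0.05. Pdhb, of pyruvate dehydrogenase, had 0.10 (SE 0.11), citrate synthase (Cs) 0.12 (SE 0.14) and Suclg2 0.40 (SE 0.34). Of 16 regulators 10 stood higher and 6 stood lower, around a median of 0.02. The GABP subunit genes Gabpb1 and Gabpa had 0.41 (SE 0.18) and -0.32 (SE 0.21), the nuclear receptor gene Esrra 0.22 (SE 0.14), and Nrf1 and Tfam, the mitochondrial transcription factor, 0.13 (SE 0.27) and 0.03 (SE 0.25); the last 2 were named for their role. Mitochondrially encoded subunits were not analysed here.

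**Figure D5:**
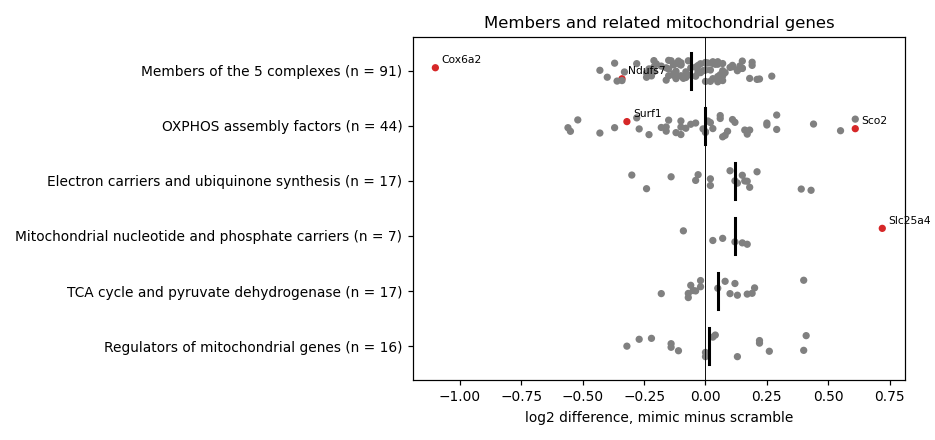
Log2 differences (mimic minus scramble, x axis) of the 91 members and of 5 related lists, 1 point per gene, with the median as a black bar; red marks an unadjusted limma p under 0.05. Cox6a2 at -1.10 and Slc25a4 at 0.72 stand farthest out, and the medians lie between -0.064 and 0.12.

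The arrays read as blastocyst. All 14 lineage markers were above the dim limit in the mean, and 7 stood higher and 7 lower with the mimic. Cdx2 read 13.33 and 12.71 (scramble and mimic means), Nanog 10.45 and 10.10, Elf5 12.09 and 12.62, and Sox2 7.85 and 8.36. Tfap2c (0.43, SE 0.18) had an unadjusted p under 0.05, and with the replicate block so did Elf5, Cdx2, Tfap2c and Sox17. In limma 3.17% of all genes were under that p without the block. With it, 7.24% of all genes and 20.0% of the 2067 other bright genes were. Of markers of cumulus cells 5 of 9 were below that limit, of oviduct 3 of 8, of sperm 3 of 8, of blood 4 of 8 and of stroma 4 of 8, and Ovgp1, Prm1, Ptprc and Col1a1 were at or near the level of unnamed features. Other markers on these lists were bright, among them Foxl2 of cumulus (12.78 and 12.59), Tubb4b of oviduct (13.74 and 13.87) and S100a9 of blood (11.20 and 11.72), and Pdgfra, on both the stroma and the blastocyst list, read 9.24 and 9.28. These markers were picked after their values were seen. The log2 of the summed signals of a list went from 10.21 to 10.35 with scramble and 10.15 to 10.29 with the mimic for sperm. For stroma it went from 10.76 to 10.84 and 10.67 to 10.89. For cumulus it went from 12.54 to 13.56 and 12.48 to 13.34, for oviduct from 13.71 to 14.02 and 13.68 to 14.18, and for blood from 11.71 to 11.96 and 11.94 to 12.48. These sums take in the markers below the dim limit and give most weight to bright genes such as Foxl2, Tubb4b and S100a9. The blood markers S100a8 (0.96, SE 0.34) and S100a9 (0.52, SE 0.18) and the oviduct marker Krt5 (-0.76, SE 0.29) also had an unadjusted p under 0.05. Krt5 had means of 7.62 with scramble and 6.86 with the mimic. Its mimic mean lay below the 7.20 of unnamed features, so its difference says little. The part of these markers in the differences above was not tested, and in whole embryos fewer cells of a type and less RNA per cell cannot be told apart.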

How the data were processed

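One-colour (Cy3) microarrays of 6 samples were analysed. The authors deposited log2 values of 45220 features. For the software and the normalization behind them, the sources used here give no name. The 6 array medians lay between 7.367 and 7.376, so a change shared by most genes cannot be seen. A single gene symbol was paired with 33026 of them, several with 0 and none with 12194, which were left out. Entrez identifiers matched 98.2% of the named ones to a RefSeq gene table (GRCm38.p6). Features in the lowest 25% by mean were left out, and per gene the feature with the highest mean over 6 arrays was used (17399 genes).

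The comparison used limma (version 3.58.1, R 4.3.3; lmFit, eBayes with a trend, two-sided, Benjamini-Hochberg, threshold 0.05). The code was also run on simulated data with independent noise, which does not carry the shared deviations of these arrays. Standard errors are moderated. Members and lists were chosen with earlier results of these data known, and no list was tested. Named were the 3 members of each group with the smallest p, those with p under 0.05, the core, Sdh and isoform genes, and the 3 related genes of each list with the smallest p. Same-numbered arrays deviated together (r = 0.328, 0.349 and 0.204), all above the 0.1 asked of pairs, though scramble 2 with mimic 3 (0.185) and scramble 3 with mimic 2 (0.124) also were, so values with the numbers as a block are given beside the unblocked comparison; the labels name no shared day. The alternatives were other feature rules, filters, normalizations, no trend, a replicate block and arrays left out. Figures were drawn with matplotlib 3.10.9.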

Additional observations from a re-analysis of the deposited data

How the results depend on the processing

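No member passed the adjusted threshold in limma under any alternative run. Over all genes 0 passed (552 at an unadjusted p under 0.05), except 1 with the replicate block, which is not a member. The count of members with an unadjusted p under 0.05 was 2, and it was 4 after quantile normalization, 4 after median centring, 1 without the trend, 9 with the replicate block, 7 without both replicate 1 arrays and 1 to 6 when single arrays were left out (6 without mimic replicate 1, and 1 without scramble replicate 2, mimic replicate 2 or mimic replicate 3). Cox6a2 was among the members counted under every alternative. The replicate block changed no adjusted call of a member.

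With single arrays left out the members' median went from -0.098 to 0.015, and that of complex IV from -0.151 to 0.016. Both were positive without scramble replicate 2 only, where the median over all genes was 0.049. The medians of the complex I core (up to 0.023), its accessory subunits (up to 0.037), complex II (down to -0.037) and complex III (up to 0.004) also changed sign with an array left out, by less than the spread between replicates. Of the 60 genes named by the rule and tested, 44 kept their sign in every alternative that included them. Cox4i2, Cox8c, Ndufa4l2 and Krt5 were too dim for the fit that left out the lowest 50% of features. Among genes named for other reasons, leaving out single arrays also turned the sign of Uqcrc1 (-0.20 to 0.02), Uqcrc2 (-0.02 to 0.11), Atp5b (-0.14 to 0.07), Ndufaf5 (-0.88 to 0.22) and Tfam (-0.15 to 0.29). The list medians ran from -0.04 to 0.04 for assembly factors, 0.03 to 0.17 for electron carriers and ubiquinone, 0.02 to 0.24 for carriers, -0.06 to 0.17 for the citric acid cycle list and -0.07 to 0.13 for regulators. The sign of Sdhb turned with the mean of all features (0.0091), as did that of Cox8a (0.023), that of Cox4i1 with quantile normalization (-0.045), median centring (-0.0017) and without both replicate 1 arrays (-0.063), and those of Sdhd (-0.083) and Cox6a1 (-0.031) without both replicate 1 arrays. With single arrays left out, the log2 differences went for Ndufs1 from -0.018 to 0.19, Ndufv1 from -0.16 to 0.057, Ndufv2 from -0.066 to 0.032, Sdhb from -0.0896 to 0.033, Sdhd from -0.091 to 0.13, Cox4i1 from -0.16 to 0.25, Cox4i2 from -0.21 to 0.001, Cox6a1 from -0.065 to 0.16, Cox6b2 from -0.10 to 0.25, Cox7a2l from -0.058 to 0.12, Cox8a from -0.16 to 0.16, Ndufa4 from -0.064 to 0.19, Atp5g2 from -0.19 to 0.39, Atp5g3 from -0.031 to 0.18, Suclg2 from -0.002 to 0.68 and Atpif1 from -0.13 to 0.21. The cause of these sign changes was not tested. No detection flags were used, so differences of dim features have no known detection limit.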
